A study of Mus musculus with 15 samples.

Results

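The collagen genes of the mouse were followed in RNA-seq of erythro-myeloid progenitors (EMPs) sorted from the yolk sac (YS) at E10.5, in the middle of mouse gestation. A gene counted as a collagen gene when its symbol was Col, a type number, the letter a and a chain number with nothing after it, and 29 of the 17454 genes with expression values met this rule. Symbols of this form number 44 in RefSeq, and those without values, among them all type VI chains, were not analysed here. Ezh2 encodes the histone methyltransferase of a polycomb repressive complex, and the study asked what its inactivation does to EMPs when it starts in endothelium or later, in emerging blood cells. EMPs were sorted as LIN−SCA1−KIT+CD16/32+CD41+ cells after the YS had been digested with collagenase IV and DNase I, and each library came from an individual YS. The labels give 500 cells per library, whereas the study's methods give another number. From these cells, cDNA was made with a SMARTer kit, amplified over 16 PCR cycles and read from one end over 75 bases. Tie2-Ezh2-KO EMPs (n = 5) were Ezh2fl/fl; Tie2-CreTg/+ and Vav-Ezh2-KO EMPs (n = 5) were Ezh2fl/fl; Vav-CreTg/+, all on a C57BL/6 background. WT EMPs carried the floxed Ezh2 alleles without Cre and came as controls of either line (3 Tie2-Ezh2-WT and 2 Vav-Ezh2-WT libraries), which makes 5 WT libraries. Tie2-Cre is active in endothelium, so its deletion is carried into the cells that descend from it. Vav-iCre acts from the onset of the hematopoietic stage. Cre removes the exons of the SET domain, so that the rest of the Ezh2 transcript can still be read.

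Collagens are secreted or membrane-bound proteins whose chains wind into a shared helix, for which prolines have to be hydroxylated in the endoplasmic reticulum. Fibrillar collagens pack into the fibrils of connective tissue, type IV chains build the network of basement membranes, and multiplexins such as type XVIII sit in the basement membranes of vessels and epithelia. In the YS, such membranes lie under the endoderm, the mesothelium and the vessels in which EMPs arise, whereas blood cells are not known as a main source of collagen.

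As a check of the sort and of the genotypes, EMP markers and Ezh2 were read first. All 11 of 11 EMP markers had a mean of 1 RPKM (reads per kilobase of transcript and megaread) or more, led by Mpo at 1244 RPKM, Gata1 at 177 and Sfpi1 (PU.1) at 161. In Tie2-Ezh2-KO EMPs against WT, 3 of the 11 were higher and 8 lower, with a median log2 change of -0.20 beside 0.01 for all genes. Without adjustment, limma gave a p under 0.05 for 4 of the 11, beside 1552 of 14154 genes tested. The 1 marker called after adjustment, Mpo, the peroxidase of myeloid granules, was lower in Tie2-Ezh2-KO EMPs (868 ± 238 against 1438 ± 274 RPKM in WT, mean ± SD, n = 5 each; limma log2 change -0.75, adjusted p = 0.0414). That call was lost without any 1 of Tie2-Ezh2-WT replicate 10 or Vav-Ezh2-WT replicates 4 and 6 or Tie2-Ezh2-KO replicates 7, 9 and 13 (adjusted p 0.0655 to 0.117). The same happened with pseudocount 1, without a filter, without a trend, after quantile normalization, after scaling and with the corresponding WT (kept in 10 of 22 alternatives, adjusted p 0.0203 to 0.312 over all). Ezh2 stood at 36.9, 39.5, 30.1, 42.0 and 41.5 RPKM in the WT libraries (Tie2-Ezh2-WT replicates 4, 10 and 12, then Vav-Ezh2-WT replicates 4 and 6; this order is kept throughout). In Tie2-Ezh2-KO EMPs it stood at 27.8, 26.2, 24.8, 29.5 and 26.5 RPKM (replicates 7, 9, 11, 13 and 17). In Vav-Ezh2-KO EMPs it stood at 33.7, 42.4, 37.8, 38.1 and 34.0 RPKM (replicates 1, 9, 10, 26 and 28). All Tie2-Ezh2-KO libraries thus lay below all WT libraries, whereas the Vav-Ezh2-KO values lay within or close to the WT range. By limma, Ezh2 fell in Tie2-Ezh2-KO EMPs (log2 change -0.48, SE 0.12, adjusted p = 0.0418, lower in 5 of 5 libraries). It did not pass the test in Vav-Ezh2-KO EMPs (limma log2 change -0.02, SE 0.11, adjusted p = 0.969). The Tie2-Ezh2-KO call was lost without any 1 of Tie2-Ezh2-WT replicates 4 and 10 or Vav-Ezh2-WT replicates 4 and 6 or Tie2-Ezh2-KO replicates 7, 11 and 17 (adjusted p 0.0760 to 0.126). Nor did Ezh2 pass without a trend, by voom and with the corresponding WT (kept in 12 of 22 alternatives, adjusted p 0.0134 to 0.344 over all). Since the value per gene also counts exons outside the deleted part, it is only a partial check of the deletion. By quantitative PCR of the deleted exon, the study reports that its expression was lost in EMPs of both knockouts.

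Depth, recovered from the steps between low RPKM values, ran from 10407398 to 41025074 reads on genes with a median of 16091836. On a transcript of 5 kb, 1 read was therefore worth between 0.00488 and 0.0192 RPKM, depending on depth. Reads of PCR products without molecular identifiers are not independent molecules, so that read numbers and the limits drawn from them cover counting error only.

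Collagen transcripts were scarce in EMPs. All 29 genes together had 3764 reads in the 15 libraries, and their median mean level was 0.00986 RPKM beside 1.92 RPKM for all genes with values. Col18a1 was the 1 member with a mean of 1 RPKM or more, and 27 of 29 (93.1%) had a mean under 0.2 RPKM against 30.9% of all genes. Of the 29 genes, 23 (79.3%) were above 0.2 RPKM in no library against 17.5%. Col18a1 and Col5a1 were the 2 members (6.90%, against 64.6% of all genes) with reads in every library, and no member was without reads in all libraries. Over all libraries pooled, multiplexins held 48.3% of the collagen reads, fibrillar collagens 24.9% and type IV collagens 20.5%. In WT libraries alone these classes had 345, 179 and 291 reads, in Tie2-Ezh2-KO 921, 518 and 308 and in Vav-Ezh2-KO 553, 241 and 172. The other classes were far lower, with transmembrane collagens at 2.31%, fibril-associated collagens at 1.94%, the network-forming Col10a1 at 1.14% and the anchoring-fibril gene Col7a1 at 0.558%.

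Summed over the 29 genes, WT libraries held 9.99, 8.79, 7.00, 10.4 and 9.87 RPM (collagen reads per megaread on genes). Tie2-Ezh2-KO libraries held 14.4, 19.2, 15.3, 26.3 and 23.7, and Vav-Ezh2-KO libraries held 5.81, 8.58, 10.1, 14.8 and 13.3. Every Tie2-Ezh2-KO library was above every WT library, and in Vav-Ezh2-KO EMPs replicate 26 was above the lowest Tie2-Ezh2-KO library, replicate 7. The group values were 9.21 ± 1.38 in WT, 19.8 ± 5.17 in Tie2-Ezh2-KO and 10.52 ± 3.60 in Vav-Ezh2-KO EMPs (mean ± SD, n = 5 each; a description, given without a test). Col18a1 made up 3.59 ± 1.65, 9.73 ± 3.57 and 5.34 ± 1.94 of these, and Col5a1 0.947 ± 0.615, 4.34 ± 1.38 and 2.02 ± 0.807. Without these 2 genes the sums were 4.67 ± 1.52 in WT, 5.72 ± 1.30 in Tie2-Ezh2-KO and 3.16 ± 1.50 in Vav-Ezh2-KO EMPs, and the WT and Tie2-Ezh2-KO libraries overlapped. The number of collagen genes with at least 1 read per library was 10 to 13 in WT, 10 to 14 in Tie2-Ezh2-KO and 9 to 14 in Vav-Ezh2-KO EMPs. In the same Tie2-Ezh2-KO libraries, sums of mesenchymal and primitive erythroid markers were above every WT library too (given further on), and their part in the collagen sums was not tested. Without Myl9 and Fbln1, and without Hba-x and Hbb-bh1, left out after seeing the data, these sums overlapped with WT. The antibodies that the study lists for sorting include TER119, by which it also marked primitive erythroid cells. What share of such cells stayed in the sorted EMPs was not tested. In bulk samples, fewer cells of a type and less RNA per cell cannot be told apart.

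**Figure D1:**
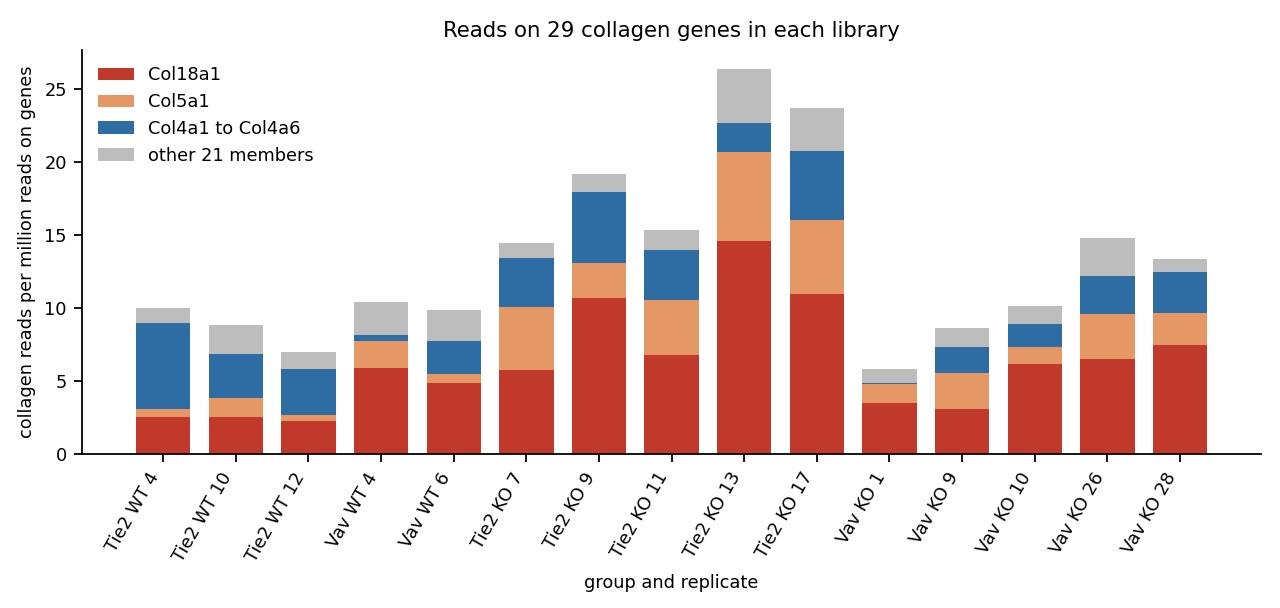
Collagen reads per megaread on genes (RPM, y axis) in each of the 15 libraries (x axis, by group), stacked by gene or class. The Tie2-Ezh2-KO bars reach 14.4 to 26.3 and the WT bars 7.00 to 10.4.

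Changes were tested with limma on log2(RPKM + 0.2) for genes above 0.2 RPKM in at least 1 library compared, and a gene counted as changed at a Benjamini-Hochberg adjusted p under 0.05 over all genes tested. Because of the added 0.2, such log2 changes understate those of low genes, which most collagens are. When Tie2-Ezh2-KO was compared with WT, 6 of 29 collagens passed the filter (20.7%, against 81.1% of all genes), and 1 of them, Col5a1, rose, beside 386 of 14154 genes tested (2.73%) called in either direction, 343 of them higher. At an unadjusted p under 0.05, 2 collagens and 1552 of all genes tested were counted, and limma-voom on the recovered reads called 2 collagens, Col5a1 and Col18a1, beside 337 of all genes (2.38%). In Vav-Ezh2-KO against WT, 4 collagens were tested and limma called 0, with 0 at an unadjusted p under 0.05 and 0 by voom, beside 1 of 13646 genes tested (0.00733%), 1082 at an unadjusted p under 0.05 and 0 by voom. In the direct comparison of Tie2-Ezh2-KO with Vav-Ezh2-KO, 5 were tested and limma called 0 (0 by voom), with 4 under 0.05 without adjustment, beside 495 of 14120 genes called (3.51%; 477 by voom) and 16.6% of all genes under 0.05 without adjustment. Of these 5, Col4a2 and Col9a3 passed the filter through Tie2-Ezh2-KO libraries alone. The same held for both genes when Tie2-Ezh2-KO was compared with WT. Col4a3 passed through Tie2-Ezh2-WT replicate 4 alone in either comparison with WT. For these genes, the filter was thus not neutral between the groups. The difference of both knockout effects, each taken against its own WT libraries, was called by limma in 0 of 6 collagens tested (1 at an unadjusted p under 0.05, 0 by voom), beside 26 of 14394 genes (0.181%), 942 (6.54%) at an unadjusted p under 0.05 and 2 by voom. The comparisons of either knockout with WT share the 5 WT libraries, so that their values are given side by side only.

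Without the filter on low values, 27 of 29 collagens had reads in Tie2-Ezh2-KO or WT EMPs, and 15 had a higher and 12 a lower mean in Tie2-Ezh2-KO EMPs, with a median log2 change of 0.01 beside 0.02 for all genes. For Vav-Ezh2-KO against WT it was 11 higher and 15 lower of 26, with a median of -0.03 beside -0.01. For Tie2-Ezh2-KO against Vav-Ezh2-KO it was 21 higher and 8 lower of 29, with a median of 0.06 beside 0.04. Unadjusted p values under 0.05 numbered 3 of 27 collagens (1712 of 16513 genes), 1 of 26 (1212 of 16145) and 4 of 29 (2491 of 16495).

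**Figure D2:**
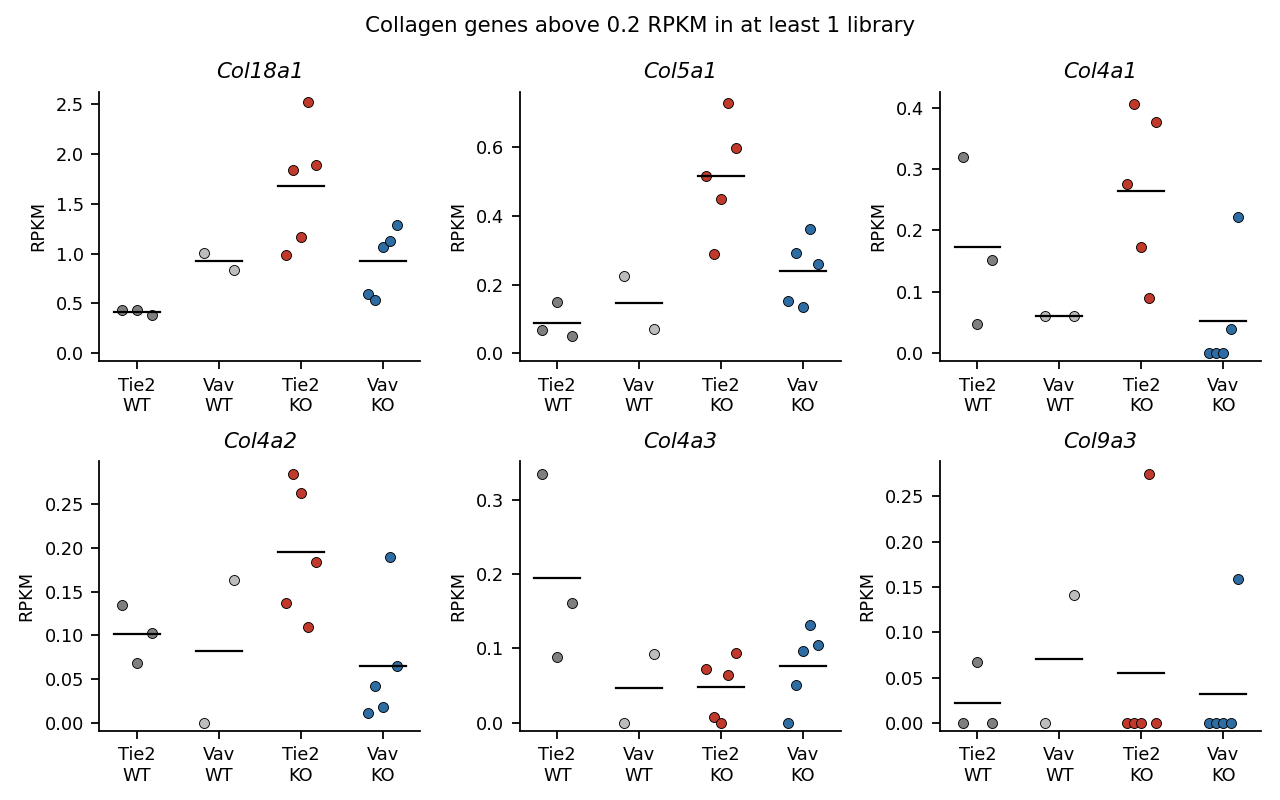
RPKM (y axis) of the 6 collagen genes tested in at least 1 comparison, in each library of the 4 groups (x axis), with a line at the group mean. For Col5a1, the Tie2-Ezh2-KO points lie at 0.288 to 0.728 RPKM and the WT points at 0.0493 to 0.224.

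Among the fibrillar collagens, Col5a1 (chr2:27886381-28039510, RefSeq GRCm38.p6) encodes a chain of type V collagen, which joins type I collagen in fibrils and limits their width. It stood at 0.0686, 0.151, 0.0493, 0.224 and 0.0716 RPKM in WT EMPs. In Tie2-Ezh2-KO EMPs it stood at 0.515, 0.288, 0.450, 0.728 and 0.599 RPKM. In Vav-Ezh2-KO EMPs it stood at 0.152, 0.291, 0.134, 0.362 and 0.261 RPKM. Every Tie2-Ezh2-KO library exceeded every WT library, the lowest being replicate 9 and the highest replicate 13, whereas the Vav-Ezh2-KO libraries overlapped both other groups. These values rest on 6, 20, 17, 28 and 12 reads in WT, 69, 37, 56, 164 and 81 in Tie2-Ezh2-KO and 36, 45, 19, 35 and 63 in Vav-Ezh2-KO libraries. Col5a1 rose 4.58-fold in mean RPKM in Tie2-Ezh2-KO EMPs (0.516 ± 0.164 against 0.113 ± 0.0732, mean ± SD, n = 5 each; limma log2 change 1.19, SE 0.28, 95% CI 0.60 to 1.79, adjusted p = 0.0325, higher in 5 of 5 libraries). The exact two-sided permutation test gave p = 0.00794, the smallest that divisions of 10 libraries into 5 and 5 allow. The limma call depended on single libraries: the adjusted p was 0.0798 without Tie2-Ezh2-WT replicate 4, 0.0599 without Tie2-Ezh2-WT replicate 10, 0.0885 without Tie2-Ezh2-WT replicate 12, 0.0884 without Vav-Ezh2-WT replicate 6, 0.0724 without Tie2-Ezh2-KO replicate 7, 0.0584 without Tie2-Ezh2-KO replicate 11, 0.0883 without Tie2-Ezh2-KO replicate 13 and 0.0872 without Tie2-Ezh2-KO replicate 17. It was 0.108 after quantile normalization and 0.117 with only the corresponding WT libraries as controls (range over all alternatives 0.00980 to 0.117). The log2 change itself kept its sign in each of these, with 1.09 to 1.32 when a library was left out and 0.44 (pseudocount 1) to 2.52 (voom) with other settings.

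In Vav-Ezh2-KO EMPs, Col5a1 had a mean of 0.240 ± 0.0961 RPKM, above the WT mean in 5 of 5 libraries and above every WT library in 3. This difference did not pass the test (limma log2 change 0.49, SE 0.27, 95% CI -0.07 to 1.06, adjusted p = 0.672; exact permutation p = 0.0397, 1 of 15 such tests and not adjusted over them). Between the knockouts, 4 of 5 Tie2-Ezh2-KO libraries were above every Vav-Ezh2-KO library, and the difference missed the limma threshold too (log2 change 0.70, SE 0.28, 95% CI 0.10 to 1.29, adjusted p = 0.208; exact permutation p = 0.0238). Taken against its own WT libraries, the change was 1.29 in Tie2-Ezh2-KO and 0.35 in Vav-Ezh2-KO EMPs on the log2 scale, and the difference of both was 0.94 (SE 0.45, 95% CI -0.01 to 1.90, limma adjusted p = 0.770). In the Tie2-Ezh2-KO group with its higher Col5a1, the summed level of 15 mesenchymal markers was also higher (17.1 ± 7.00 against 5.53 ± 0.593 RPKM in WT), as was that of 10 parietal endoderm markers (37.3 ± 8.81 against 21.3 ± 3.00) and that of 6 primitive erythroid markers (453 ± 272 against 125 ± 32.0, no overlap). The sum of the mesenchymal markers was carried by Myl9 and Fbln1, without which, left out after seeing the data, it was 3.63 ± 0.436 against 3.44 ± 0.687. Without Krt18 and Pth1r, left out likewise, the parietal endoderm sum was 10.2 ± 1.94 against 7.79 ± 1.01. Without Hba-x and Hbb-bh1, left out likewise, the primitive erythroid sum was 12.4 ± 4.84 against 9.56 ± 2.36, and the groups overlapped. These lists are given in every library further on, and their part in the Col5a1 result was not tested.

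The 7 fibrillar genes tested in no comparison encode the chains of type I (Col1a1, Col1a2), type II (Col2a1), type III (Col3a1), type XI (Col11a1, Col11a2) and type XXVII collagen (Col27a1). Each had 3 to 86 reads over all libraries, seen in 2 to 12 of 15, and means of 0.00218 to 0.0575 RPKM. The highest value in any library was 0.159 RPKM, below the filter of 0.2 RPKM. Together their reads numbered 96 in WT, 111 in Tie2-Ezh2-KO and 43 in Vav-Ezh2-KO libraries, or 0.932 ± 0.400 in WT, 1.17 ± 0.718 in Tie2-Ezh2-KO and 0.576 ± 0.586 in Vav-Ezh2-KO EMPs as RPM. These groups overlapped, and differences among these genes were not tested.

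The chief chains of the basement membrane network are encoded by Col4a1 (chr8:11198423-11312889) and Col4a2 (chr8:11312805-11449287), which lie head to head on chromosome 8 and overlap at their ends in RefSeq GRCm38.p6. Since the library kit does not mark strand, reads in such an overlap cannot be assigned to one gene. Col4a1 stood at 0.320, 0.0478, 0.151, 0.0609 and 0.0606 RPKM in WT EMPs and at 0.275, 0.406, 0.173, 0.0902 and 0.376 RPKM in Tie2-Ezh2-KO EMPs. In Vav-Ezh2-KO EMPs it stood at 0, 0, 0, 0.0394 and 0.221 RPKM. Among the WT libraries, Tie2-Ezh2-WT replicate 4 was the highest, and in Vav-Ezh2-KO EMPs replicate 28 held 42 of 45 reads. Replicates 1, 9 and 10 of Vav-Ezh2-KO had 0 Col4a1 reads, which allows up to 0.0161, 0.0246 and 0.0269 RPKM at 3 reads. The mean was 0.264 ± 0.133 RPKM in Tie2-Ezh2-KO against 0.128 ± 0.115 in WT EMPs, with 4 of 5 libraries above the WT mean and overlapping groups, which did not pass the test (limma log2 change 0.51, SE 0.31, 95% CI -0.15 to 1.17, adjusted p = 0.669; exact permutation p = 0.103). For Vav-Ezh2-KO against WT it did not pass either (limma log2 change -0.39, SE 0.31, 95% CI -1.04 to 0.27, adjusted p = 0.779, 4 of 5 libraries below the WT mean; exact permutation p = 0.183). Leaving out 1 library gave log2 changes of -0.59 to -0.20 in this comparison. The largest difference of Col4a1 lay between the knockouts, with all 5 Tie2-Ezh2-KO libraries above the Vav-Ezh2-KO mean, and it also missed the threshold (limma log2 change 0.90, SE 0.31, 95% CI 0.24 to 1.55, adjusted p = 0.136, range 0.0561 to 0.283 over the alternatives; exact permutation p = 0.0238).

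Col4a2 encodes the partner chain that joins Col4a1 chains in the network. It stood at 0.135, 0.0689, 0.102, 0 and 0.164 RPKM in WT and at 0.137, 0.285, 0.263, 0.110 and 0.184 RPKM in Tie2-Ezh2-KO EMPs. In Vav-Ezh2-KO EMPs it stood at 0.0110, 0.0422, 0.0185, 0.189 and 0.0650 RPKM. With a mean of 0.196 ± 0.0765 against 0.0939 ± 0.0633 RPKM in WT, the Tie2-Ezh2-KO libraries all lay above the WT mean and 3 lay above every WT library, while the Vav-Ezh2-KO libraries spread from near 0 into the Tie2-Ezh2-KO range. Neither Tie2-Ezh2-KO against WT (limma log2 change 0.44, SE 0.27, adjusted p = 0.670; exact permutation p = 0.0556) nor against Vav-Ezh2-KO (log2 change 0.59, SE 0.27, 95% CI 0.02 to 1.16, limma adjusted p = 0.277; exact permutation p = 0.0317) passed the adjusted threshold. Against WT, Vav-Ezh2-KO was not tested for Col4a2, because no library of either group was above 0.2 RPKM.

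Col4a3 (chr1:82586921-82722059) and Col4a4 (chr1:82448419-82587034) encode chains of the type IV network of kidney and lung membranes and likewise overlap at their ends, on chromosome 1. Col4a3 stood at 0.335, 0.0882, 0.161, 0 and 0.0931 RPKM in WT and at 0.0729, 0.00760, 0, 0.0650 and 0.0938 RPKM in Tie2-Ezh2-KO EMPs. In Vav-Ezh2-KO EMPs it stood at 0, 0.0505, 0.0965, 0.131 and 0.105 RPKM. All 5 Tie2-Ezh2-KO and all 5 Vav-Ezh2-KO libraries were below the WT mean, which Tie2-Ezh2-WT replicate 4 had raised, and the groups overlapped, with 0 reads in Vav-Ezh2-WT replicate 4. The lower level passed the test in neither Tie2-Ezh2-KO (limma log2 change -0.38, SE 0.29, adjusted p = 0.801; exact permutation p = 0.190) nor Vav-Ezh2-KO EMPs (log2 change -0.22, SE 0.29, 95% CI -0.85 to 0.40, limma adjusted p = 0.866; exact permutation p = 0.437). The means were 0.0479 ± 0.0417 RPKM in Tie2-Ezh2-KO, 0.0767 ± 0.0518 in Vav-Ezh2-KO and 0.135 ± 0.125 in WT EMPs. Taken against its own WT libraries, the Col4a3 change was -0.64 in Tie2-Ezh2-KO and 0.17 in Vav-Ezh2-KO EMPs on the log2 scale. The direction in Vav-Ezh2-KO EMPs thus depended on the WT libraries used. The 3 type IV genes tested in no comparison, Col4a4 and the chromosome X neighbours Col4a5 and Col4a6, had 9 to 42 reads each, with at most 0.127 RPKM in a library. Their reads numbered 30 in WT, 21 in Tie2-Ezh2-KO and 31 in Vav-Ezh2-KO libraries, and these groups overlapped. As RPM, the 6 type IV genes came to 2.95 ± 1.97 in WT, 3.68 ± 1.20 in Tie2-Ezh2-KO and 1.77 ± 1.06 in Vav-Ezh2-KO EMPs, and these groups overlapped.

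Col18a1 (chr10:77052178-77166530) was the most abundant collagen gene in EMPs and encodes type XVIII collagen, whose released end fragment is endostatin, an inhibitor of vessel growth. It stood at 0.431, 0.437, 0.383, 1.01 and 0.839 RPKM in WT EMPs, with both Vav-Ezh2-WT libraries above the 3 Tie2-Ezh2-WT libraries. In Tie2-Ezh2-KO EMPs it stood at 0.986, 1.84, 1.17, 2.52 and 1.89 RPKM. In Vav-Ezh2-KO EMPs it stood at 0.599, 0.534, 1.07, 1.13 and 1.29 RPKM. Of the Tie2-Ezh2-KO libraries 4 were above every WT library, while replicate 7 was just under Vav-Ezh2-WT replicate 4, so the groups overlapped. The Vav-Ezh2-KO libraries reached from the WT level into the lower Tie2-Ezh2-KO range. Reads numbered 26, 40, 91, 87 and 97 in WT, 91, 163, 100, 391 and 176 in Tie2-Ezh2-KO and 98, 57, 104, 75 and 214 in Vav-Ezh2-KO libraries. With a mean of 1.68 ± 0.616 RPKM in Tie2-Ezh2-KO and 0.620 ± 0.285 RPKM in WT EMPs, a ratio of 2.71, the difference missed the threshold (limma log2 change 1.20, SE 0.33, 95% CI 0.50 to 1.89, adjusted p = 0.0713, 5 of 5 libraries above the WT mean; exact permutation p = 0.0159). It passed the threshold with limma-voom (adjusted p = 0.0402) and with all libraries in one fit (adjusted p = 0.0394), and the range over the alternatives was 0.0394 to 0.169.

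Vav-Ezh2-KO EMPs had 0.922 ± 0.335 RPKM of Col18a1, which did not pass the test against all WT libraries (limma log2 change 0.46, SE 0.31, 95% CI -0.20 to 1.12, adjusted p = 0.722, 3 of 5 above the WT mean; exact permutation p = 0.175). The log2 change was -0.05 against the 2 Vav-Ezh2-WT libraries alone. Between the knockouts, all 5 Tie2-Ezh2-KO libraries were above the Vav-Ezh2-KO mean (limma log2 change 0.74, SE 0.32, 95% CI 0.06 to 1.41, adjusted p = 0.247; exact permutation p = 0.0635). Measured against the Tie2-Ezh2-WT libraries alone, Tie2-Ezh2-KO gave 1.54. On the log2(RPKM + 0.2) scale, the difference of both knockout effects was the largest of the 6 collagens tested, 1.60 (SE 0.51, 95% CI 0.53 to 2.67, limma adjusted p = 0.373). With other settings it ran from 0.91 to 2.10, and that of Col4a1 from 0.12 to 2.90. The other multiplexin gene, Col15a1, which was not tested, had 4 reads in WT, 0 in Tie2-Ezh2-KO and 5 in Vav-Ezh2-KO libraries.

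**Figure D3:**
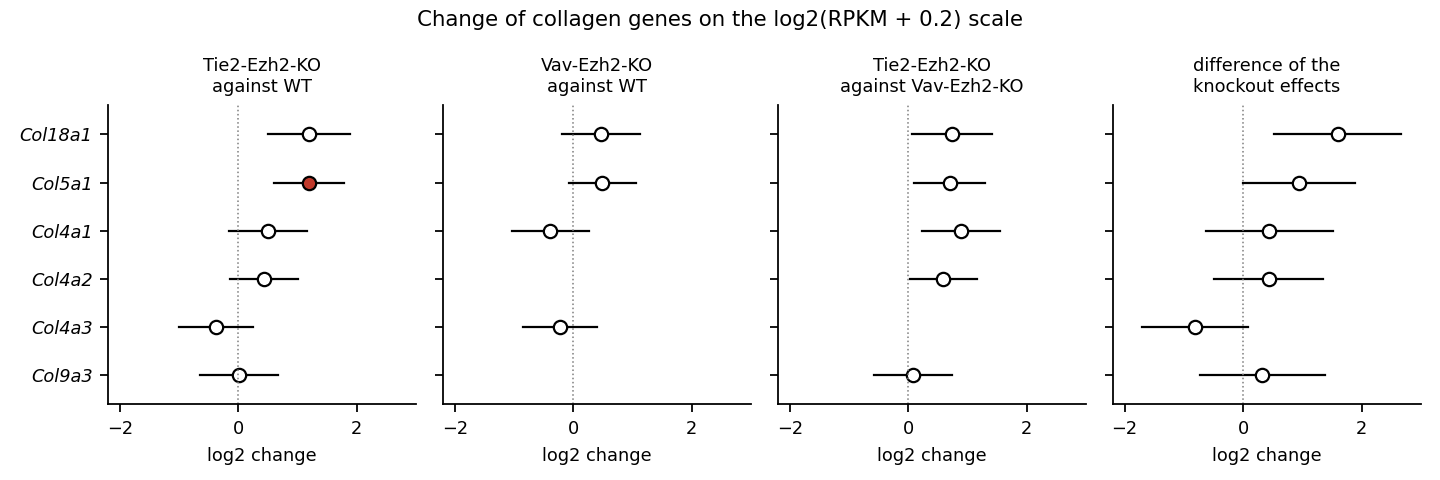
Log2 change with its 95% confidence interval (x axis) of each tested collagen gene (y axis) in the 4 comparisons, on the log2(RPKM + 0.2) scale. The 1 filled point, Col5a1 in Tie2-Ezh2-KO against WT at 1.19, had a limma adjusted p under 0.05.

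Collagens that decorate fibrils were low and uneven. Col9a3 (chr2:180598102-180622192), a chain of type IX collagen of cartilage, stood at 0, 0.0667, 0, 0 and 0.141 RPKM in WT, at 0, 0, 0, 0.275 and 0 RPKM in Tie2-Ezh2-KO and at 0, 0, 0, 0 and 0.159 RPKM in Vav-Ezh2-KO EMPs. It was thus seen in 4 of 15 libraries, with all knockout reads in Tie2-Ezh2-KO replicate 13 and Vav-Ezh2-KO replicate 28. The changes were near 0 and the direction depended on the scaling (limma log2 change 0.01, SE 0.31, adjusted p = 0.996 in Tie2-Ezh2-KO against WT, 1 of 5 libraries above the WT mean, and -0.10 after quantile normalization; 0.08, adjusted p = 0.933 against Vav-Ezh2-KO). Its exact permutation p was 1 in both. The 4 other genes of this class, Col14a1, Col16a1, Col20a1 and Col22a1, encode chains that sit on the surface of fibrils. They had 1 to 13 reads each (a minimum for Col22a1), seen in 1 to 4 of 15 libraries.

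Transmembrane collagens, which reach through the cell membrane with one end and carry the collagen domain outside, were represented by Col13a1, Col17a1, Col23a1 and Col25a1. They had 4 to 65 reads each (a minimum for Col17a1), with at most 0.165 RPKM in a library, and none was tested. Their reads numbered 12 in WT, 45 in Tie2-Ezh2-KO and 30 in Vav-Ezh2-KO libraries, or 0.143 ± 0.156 in WT, 0.441 ± 0.388 in Tie2-Ezh2-KO and 0.291 ± 0.205 in Vav-Ezh2-KO EMPs as RPM. The groups overlapped, and 25 of the reads were those of Col23a1 in Tie2-Ezh2-KO replicate 13. The network-forming gene of hypertrophic cartilage, Col10a1, was seen in 10 of 15 libraries, and its reads numbered 16 in WT, 11 in Tie2-Ezh2-KO and 16 in Vav-Ezh2-KO libraries. Its level never passed 0.129 RPKM, and no group stood apart. For the gene of the fibrils that anchor skin epithelium, Col7a1, the reads were 11 in WT, 3 in Tie2-Ezh2-KO and 7 in Vav-Ezh2-KO libraries. The remaining genes, Col26a1 and Col28a1, had 4 to 8 reads each (a minimum for Col28a1), with 4 in WT, 8 in Tie2-Ezh2-KO and 0 in Vav-Ezh2-KO EMPs.

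For the type IV collagens, the difference of both knockout effects was 0.45 for Col4a1 (SE 0.51, limma adjusted p = 0.986). It was 0.44 for Col4a2 (SE 0.44, limma adjusted p = 0.986) and -0.81 for Col4a3 (SE 0.42, limma adjusted p = 0.822). For Col9a3 it was 0.33 (SE 0.50, limma adjusted p = 0.990). Leaving out 1 library gave 0.18 to 0.72 for Col4a1, 0.0042 to 0.87 for Col4a2 and -1.09 to -0.54 for Col4a3. On the log2(RPKM + 0.2) scale, Col18a1 and Col5a1 had the largest differences and Col4a3 the lowest, and none passed the threshold. This order depended on the setting. With another one, Col4a1 reached 2.90, above the highest values of Col18a1 (2.10) and Col5a1 (1.95).

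Promoter sequence is shown for Col5a1, the 1 collagen that passed the test, and for Col18a1, the most abundant one; 22 of the 29 genes matched the RefSeq promoter table. The Col5a1 window covers the 206 bases before the gene's first base, chr2:27886175-27886380 on the + strand, and that of Col18a1 the 250 bases before the outer of its 2 starts, chr10:77166531-77166780 on the − strand. Both lie upstream of the annotated start in RefSeq GRCm38.p6 and overlap 0 other annotated genes. Each is written 5′ to 3′ in lower case, with matches in capitals to the GC box GGGCGG, to the letters CCAAT and to the TATA box, searched as TATAAA, each on either strand.
Col5a1: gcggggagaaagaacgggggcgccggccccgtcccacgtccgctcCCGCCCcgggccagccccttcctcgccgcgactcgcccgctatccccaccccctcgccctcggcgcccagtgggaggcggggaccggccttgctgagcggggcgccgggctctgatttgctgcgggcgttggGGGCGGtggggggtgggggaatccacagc
Col18a1: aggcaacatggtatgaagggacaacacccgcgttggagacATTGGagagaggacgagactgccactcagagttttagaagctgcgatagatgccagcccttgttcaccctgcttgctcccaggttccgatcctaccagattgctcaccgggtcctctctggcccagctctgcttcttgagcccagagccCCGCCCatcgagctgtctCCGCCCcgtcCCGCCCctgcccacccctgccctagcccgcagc
The Col5a1 window is 77.7% G and C, above 97.7% of the 32851 promoters over a window of this length (median 51.9%), with 25 CG dinucleotides beside a median of 4. It holds 2 matches to GGGCGG, which 25.8% of promoters hold, and none to CCAAT (29.3%) or TATAAA (9.38%). The Col18a1 window is 62.0% G and C, above 76.7% of promoters (median 52.4%), with 12 CG dinucleotides beside a median of 6. It holds 3 matches to GGGCGG (32.7% of promoters hold one) and 1 to CCAAT on the other strand (33.8%), and none to TATAAA (12.4%). A match describes these letters only.

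The enzymes that modify collagen chains were present in EMPs beside the low collagen level. For every limma call against WT or Vav-Ezh2-KO on a partner or marker gene given from here on, 5 of 5 Tie2-Ezh2-KO libraries lay on the same side of the other group's mean. Of 13 prolyl and lysyl modification genes, 12 had a mean of 1 RPKM or more, led by P4hb at 258 RPKM, Glt25d1 (Colgalt1) at 28.7 and Crtap at 11.98. In Tie2-Ezh2-KO against WT, 2 of 13 rose, with a median log2 change of 0.08 beside 0.01 for all genes. These were P4ha2, a catalytic chain of prolyl hydroxylase (2.58 ± 1.73 against 0.190 ± 0.350 RPKM; limma log2 change 2.98, adjusted p = 0.00253, called in 22 of 22 alternatives), and Leprel4 (P3h4), which takes part in lysyl hydroxylation (10.9 ± 1.29 against 5.53 ± 0.543 RPKM; limma log2 change 0.95, adjusted p = 0.00315, called in 22 of 22 alternatives). For both, every Tie2-Ezh2-KO library was above every WT library. Both were also higher than in Vav-Ezh2-KO EMPs, by log2 changes of 2.07 and 1.57 (limma adjusted p = 0.00511 and 0.000373, called in 21 of 21 alternatives).

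Of 21 folding and export genes, led by Hspa5 (692 RPKM), Pdia3 (442) and Calr (439), 1 rose in Tie2-Ezh2-KO against WT, with a median log2 change of -0.04. Kdelr3, a retrieval receptor of the endoplasmic reticulum, was at 0 in all 5 WT libraries, and its means were 3.67 ± 0.779 RPKM in Tie2-Ezh2-KO and 0.223 ± 0.308 in Vav-Ezh2-KO EMPs (limma adjusted p = 9.37e-07 against WT, higher in 5 of 5 libraries, called in 22 of 22 alternatives). Against WT, Kdelr3 thus passed the filter through Tie2-Ezh2-KO libraries alone, so that the filter was not neutral for it. Its call was kept without the filter. Between the knockouts, Serpinh1, which encodes the collagen chaperone HSP47, was higher in Tie2-Ezh2-KO EMPs (2.24 ± 0.355 against 0.491 ± 0.337 RPKM; limma log2 change 1.97, adjusted p = 0.00566, called in 21 of 21 alternatives). By limma, so were Fkbp10 (1.30, adjusted p = 0.0173) and Kdelr3 (3.49, adjusted p = 0.000373), while Kdelr1 (-1.04, adjusted p = 0.0448) was lower. The Kdelr1 call was lost without any 1 of Tie2-Ezh2-KO replicates 11 and 13 or Vav-Ezh2-KO replicates 1, 9, 10, 26 and 28 (adjusted p 0.0669 to 0.0995). It was also lost without a filter, without a trend and after scaling (kept in 11 of 21 alternatives, adjusted p 0.0210 to 0.101 over all). For Leprel4 and Kdelr3 the difference of both knockout effects passed the threshold too (limma adjusted p = 0.0457 for both, log2 1.63 for Leprel4). The Leprel4 call was lost without any 1 of Tie2-Ezh2-WT replicates 4, 10 and 12 or Vav-Ezh2-WT replicates 4 and 6 or Tie2-Ezh2-KO replicates 7, 11 and 17 or Vav-Ezh2-KO replicates 1, 10, 26 and 28 (adjusted p 0.0599 to 0.324). The same happened with pseudocount 0.05, without a filter, above 1 RPKM, after quantile normalization, after scaling and by voom (kept in 7 of 25 alternatives, adjusted p 0.0153 to 0.324 over all). The Kdelr3 call was lost without any 1 of Tie2-Ezh2-WT replicates 4, 10 and 12 or Vav-Ezh2-WT replicates 4 and 6 or Tie2-Ezh2-KO replicates 7, 9, 11, 13 and 17 or Vav-Ezh2-KO replicates 1, 10 and 28 (adjusted p 0.0532 to 0.294). Nor did Kdelr3 pass with pseudocount 0.05, without a filter, above 1 RPKM, without a trend, after quantile normalization, after scaling and by voom (kept in 5 of 25 alternatives, adjusted p 0.0105 to 0.393 over all).

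Of 12 genes for collagen propeptide processing and cross-linking, led by Loxl2 (35.7 RPKM), Adamts3 (1.79) and Tgm2 (1.02), 7 were tested in Tie2-Ezh2-KO against WT and 1 rose, with 4 under 0.05 without adjustment (1552 of 14154 genes) and 1 called by voom. This was Pcolce2, an enhancer of procollagen cleavage (1.03 ± 0.508 against 0.0957 ± 0.0963 RPKM; limma log2 change 2.02, adjusted p = 0.00402, called in 22 of 22 alternatives, higher in 5 of 5 libraries). Without the filter, tried for this list after seeing the data, 12 of 12 had a higher mean (median log2 change 0.28), 6 were under 0.05 without adjustment and limma called 2. Between the knockouts, limma called Pcolce2 (1.97, adjusted p = 0.00515) and Tgm2 (2.06, adjusted p = 0.0490) higher in Tie2-Ezh2-KO EMPs. The Tgm2 call was lost without any 1 of Tie2-Ezh2-KO replicates 7, 11, 13 and 17 or Vav-Ezh2-KO replicates 1, 10, 26 and 28 (adjusted p 0.0753 to 0.131). It was also lost with pseudocount 1, with pseudocount 0.05, without a filter, above 1 RPKM, without a trend, by voom and in the fit of all libraries (kept in 6 of 21 alternatives, adjusted p 0.0112 to 0.131 over all). Of 18 collagen degradation genes, led by Prep (74.5 RPKM), Ctsb (37.6) and Ctsl (26.1) and with Mmp13 at 0, 14 were tested and 2 rose. These were Mmp14, a membrane-bound collagenase (0.994 ± 0.234 against 0.0625 ± 0.0573 RPKM; limma log2 change 2.19, adjusted p = 0.000353, called in 22 of 22 alternatives), and its partner Timp2 (3.81 ± 0.812 against 0.649 ± 0.298 RPKM; limma log2 change 2.29, adjusted p = 0.000516, called in 22 of 22 alternatives), each with every Tie2-Ezh2-KO library above every WT library. Against WT, Mmp14 passed the filter through Tie2-Ezh2-KO libraries alone, and its call was kept without the filter. Unfiltered, 12 of 17 had a higher mean (median log2 change 0.15), 4 were under 0.05 without adjustment and limma called 2. Against Vav-Ezh2-KO, limma gave Mmp14 (1.95, adjusted p = 0.00273) and Timp2 (2.07, adjusted p = 0.00366). Of the 13 collagen receptor genes, led by Gpr56 (139.5 RPKM), Itgb1 (58.6) and Cd44 (11.6), limma called 0 of 8 in Tie2-Ezh2-KO against WT (0 under 0.05 without adjustment, 0 by voom) and 0 of 9 between the knockouts (1 under 0.05 without adjustment, 0 by voom).

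Of 17 partners of collagen in basement membranes, led by Sparc (5.65 RPKM), Nid2 (1.30) and Lamc1 (1.22), 10 were tested in Tie2-Ezh2-KO against WT and limma called 1, Tinagl1 (1.25 ± 1.26 against 0.0919 ± 0.173 RPKM; limma log2 change 2.16, adjusted p = 0.0172, called in 20 of 22 alternatives, higher in 5 of 5 libraries), with 7 under 0.05 without adjustment (1552 of 14154 genes) and 2 called by voom. Without the filter, an alternative chosen for these lists after seeing the data, 15 of 15 had a higher mean, with a median log2 change of 0.68 beside 0.02 for all genes, 6 were under 0.05 without adjustment (1712 of 16513 genes), and limma called 2. Between the knockouts, limma called Tinagl1 (2.44, adjusted p = 0.00274) and Fn1 (1.71, adjusted p = 0.0121) higher in Tie2-Ezh2-KO EMPs, both in 21 of 21 alternatives. Of 15 fibril partners of collagen, led by Thbs1 (4.06 RPKM), Fbln1 (2.91) and Matn2 (0.435), 8 were tested and 1 rose, Fbln1, a fibulin of elastic fibres (5.17 ± 1.49 against 1.68 ± 0.257 RPKM; limma log2 change 1.48, adjusted p = 0.00337, called in 22 of 22 alternatives, no overlap with WT), which was also higher than in Vav-Ezh2-KO EMPs (log2 change 1.40, limma adjusted p = 0.0148). Unfiltered, 10 of 14 had a higher mean (median log2 change 0.11), 5 were under 0.05 without adjustment and limma called 1. Of 23 proteins with a collagen domain outside the family, led by Emid1 (36.4 RPKM), Emilin2 (27.6) and Emilin1 (12.9) and with C1qa and Colec10 at 0, limma called 0 of 17 in Tie2-Ezh2-KO against WT (1 under 0.05 without adjustment, 0 by voom). In Vav-Ezh2-KO against WT, limma called 0 of the 160 entries tested from all 17 lists of partners and markers (16 under 0.05 without adjustment, 0 by voom).

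Markers of other YS cells were read beside the collagens, and their part in the collagen results was not tested. Of 15 endothelial markers 14 had values, led by Egfl7 (113 RPKM), Pecam1 (16.7) and Esam (12.1), and limma called 0 of 12 in Tie2-Ezh2-KO against WT (3 under 0.05 without adjustment, 0 by voom). In that comparison, 8 were higher and 4 lower, with a median log2 change of 0.12 beside 0.01 for all genes. Between the knockouts limma called 0 of 12 (6 under 0.05 without adjustment, 0 by voom), with 9 higher in Tie2-Ezh2-KO EMPs and a median log2 change of 0.38. The sums of the endothelial markers were 166, 176, 189.8, 153 and 171 RPKM in WT, 182, 158, 174, 179.6 and 166 in Tie2-Ezh2-KO and 153, 145, 136, 175 and 139 in Vav-Ezh2-KO libraries. On average, Egfl7 made up most of these sums. The 15 mesenchymal markers, led by Myl9 (3.15 RPKM), Fbln1 and Pdgfrb (1.14), summed to 5.28, 5.61, 4.82, 6.44 and 5.52 RPKM in WT, 14.0, 23.2, 25.8, 10.6 and 11.7 in Tie2-Ezh2-KO and 4.65, 4.15, 5.40, 8.29 and 5.04 in Vav-Ezh2-KO libraries. All Tie2-Ezh2-KO libraries exceeded the others through Myl9 and Fbln1. Of 10 tested against WT, 6 had a higher and 4 a lower mean, with a median log2 change of 0.10, and 2 rose, Fbln1 and the myosin light chain gene Myl9 (8.26 ± 8.20 against 0.418 ± 0.358 RPKM; limma log2 change 3.36, adjusted p = 0.0130, called in 20 of 22 alternatives). Against Vav-Ezh2-KO, Myl9 was higher as well (log2 change 2.54, limma adjusted p = 0.0288), a call lost without any 1 of Tie2-Ezh2-KO replicate 11 or Vav-Ezh2-KO replicates 1, 9 and 28 (adjusted p 0.0672 to 0.0756). The same happened with pseudocount 1, without a filter, without a trend, after quantile normalization and by voom (kept in 12 of 21 alternatives, adjusted p 0.00991 to 0.140 over all). The 4 mesothelial markers with values, led by Lrrn4 (0.294 RPKM), Upk3b (0.0196) and Krt19 (0.0140), summed to 0 to 0.809 RPKM in WT, 0 to 0.788 in Tie2-Ezh2-KO and 0 to 0.550 in Vav-Ezh2-KO libraries, and limma called 0 of 3 in Tie2-Ezh2-KO against WT (0 under 0.05 without adjustment, 0 by voom).

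The 15 visceral endoderm markers, led by Trf (21.6 RPKM), Apoa1 (9.44) and Afp (8.24), summed to 234, 21.7, 25.1, 18.3 and 27.4 RPKM in WT, 314, 36.2, 25.5, 25.1 and 36.4 in Tie2-Ezh2-KO and 19.8, 15.6, 15.4, 23.5 and 11.4 in Vav-Ezh2-KO libraries. Tie2-Ezh2-WT replicate 4 and Tie2-Ezh2-KO replicate 7 stood apart. Without Tie2-Ezh2-KO replicate 7 the log2 change of Col5a1 in Tie2-Ezh2-KO against WT was 1.18, that of Col18a1 1.35 and that of Col4a1 0.49. Without Tie2-Ezh2-WT replicate 4 these were 1.14, 1.12 and 0.69. No collagen gene was called by limma in either omission, so that the Col5a1 call was lost in both. Of 13 visceral endoderm markers tested 1 rose, Amn (2.43 ± 1.28 against 0.183 ± 0.348 RPKM; limma log2 change 3.01, adjusted p = 0.00155, called in 22 of 22 alternatives, higher in 5 of 5 libraries). In this comparison, 12 were higher and 1 lower (median log2 change 0.32), but leaving out Tie2-Ezh2-KO replicate 7 gave 3 higher and 9 lower (median log2 change -0.36). In Vav-Ezh2-KO against WT, 0 were higher and 11 lower (median log2 change -0.98), and leaving out Tie2-Ezh2-WT replicate 4 gave 3 higher and 6 lower (median log2 change -0.11). Between the knockouts, 13 were higher and 0 lower (median log2 change 1.20), and leaving out Tie2-Ezh2-KO replicate 7 gave 11 higher and 0 lower (median log2 change 0.58). The 10 parietal endoderm markers, led by Krt18 (17.4 RPKM), Sparc and Krt8 (2.27), summed to 26.4, 21.3, 19.2, 19.1 and 20.2 RPKM in WT, 50.7, 34.8, 37.0, 26.2 and 37.8 in Tie2-Ezh2-KO and 23.1, 16.4, 19.6, 25.4 and 23.2 in Vav-Ezh2-KO libraries. In Tie2-Ezh2-KO against WT, 7 were higher and 0 lower (median log2 change 0.49), and between the knockouts, 7 were higher and 0 lower (median log2 change 0.53). In Vav-Ezh2-KO against WT, 4 were higher and 2 lower (median log2 change 0.04). Against WT, 2 of 7 rose in Tie2-Ezh2-KO EMPs, Krt18 (25.5 ± 7.42 against 13.2 ± 2.29 RPKM; limma log2 change 0.90, adjusted p = 0.0199, called in 15 of 22 alternatives) and Pth1r (1.61 ± 1.03 against 0.245 ± 0.269 RPKM; limma log2 change 2.06, adjusted p = 0.0189, called in 18 of 22 alternatives). The Krt18 call was lost without any 1 of Vav-Ezh2-WT replicates 4 and 6 or Tie2-Ezh2-KO replicate 7 (adjusted p 0.0534 to 0.0598). Nor did Krt18 pass without a trend, after scaling, by voom and with the corresponding WT (kept in 15 of 22 alternatives, adjusted p 0.00323 to 0.179 over all). The Pth1r call was lost without any 1 of Tie2-Ezh2-WT replicate 12 or Vav-Ezh2-WT replicate 4 or Tie2-Ezh2-KO replicate 7 (adjusted p 0.0506 to 0.0555). It was also lost with the corresponding WT (kept in 18 of 22 alternatives, adjusted p 0.00800 to 0.110 over all). Against Vav-Ezh2-KO, limma gave Amn (3.42, adjusted p = 0.000149), Krt18 (0.88, adjusted p = 0.0181; kept in 18 of 21 alternatives, lost without a trend, after scaling and by voom) and Pth1r (1.61 ± 1.03 against 0.231 ± 0.151 RPKM, adjusted p = 0.0101).

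Among blood lineages, the 9 macrophage markers were led by Cd68 (13.1 RPKM), Csf1r (4.85) and Cx3cr1 (0.937), with C1qa at 0, and limma called 0 of 7 in Tie2-Ezh2-KO against WT (2 under 0.05 without adjustment, 0 by voom). Cd68 was lower in Tie2-Ezh2-KO than in Vav-Ezh2-KO EMPs (9.72 ± 1.77 against 15.9 ± 2.77 RPKM; limma log2 change -0.71, adjusted p = 0.0333, called in 12 of 21 alternatives), a call lost without any 1 of Tie2-Ezh2-KO replicates 7, 11 and 17 or Vav-Ezh2-KO replicates 1, 26 and 28 (adjusted p 0.0508 to 0.0940). The same happened without a filter, without a trend and by voom (kept in 12 of 21 alternatives, adjusted p 0.00799 to 0.0940 over all). Of 10 megakaryocyte markers, among them Pf4 (69.8 RPKM) and Gp9 (40.0), 1 fell in Tie2-Ezh2-KO against WT, Gp1ba (4.06 ± 0.920 against 8.11 ± 2.29 RPKM; limma log2 change -0.94, adjusted p = 0.0495, called in 9 of 22 alternatives), and this call was lost without any 1 of Tie2-Ezh2-WT replicates 4 and 10 or Vav-Ezh2-WT replicates 4 and 6 or Tie2-Ezh2-KO replicates 7, 9, 11 and 17 (adjusted p 0.0640 to 0.146). Nor did Gp1ba pass with pseudocount 1, without a filter, without a trend, by voom and with the corresponding WT (kept in 9 of 22 alternatives, adjusted p 0.0174 to 0.231 over all). The 6 primitive erythroid markers, led by Hbb-bh1 (165 RPKM) and Hba-x (57.0), summed to 151, 132, 148, 71.9 and 122 RPKM in WT, 318, 590.2, 865, 199.6 and 291 in Tie2-Ezh2-KO and 88.5, 129.8, 65.7, 159 and 157 in Vav-Ezh2-KO libraries. The lowest Tie2-Ezh2-KO library was above every WT and every Vav-Ezh2-KO library. Without Hba-x and Hbb-bh1, left out after seeing the data, the sums ran from 8.28 to 18.1 RPKM in Tie2-Ezh2-KO libraries. They then ran from 7.38 to 13.1 in WT and from 6.37 to 13.7 in Vav-Ezh2-KO libraries, so that all groups overlapped. Against WT, 2 rose, the embryonic globin genes Hba-x (166 ± 146 against 1.36 ± 0.858 RPKM; limma log2 change 6.33, adjusted p = 8.88e-05, called in 21 of 22 alternatives) and Hbb-bh1 (274 ± 142 against 114 ± 32.1 RPKM; limma log2 change 1.18, adjusted p = 0.0441, called in 9 of 22 alternatives). The Hbb-bh1 call was lost without any 1 of Tie2-Ezh2-WT replicates 4, 10 and 12 or Vav-Ezh2-WT replicates 4 and 6 or Tie2-Ezh2-KO replicates 7, 9 and 11 (adjusted p 0.0535 to 0.101). It was also lost without a filter, without a trend, after scaling, by voom and with the corresponding WT (kept in 9 of 22 alternatives, adjusted p 0.0248 to 0.246 over all). Against Vav-Ezh2-KO, limma gave Hba-x (5.64, adjusted p = 0.000422) and Hbb-bh1 (1.29, adjusted p = 0.0302), the latter lost without any 1 of Tie2-Ezh2-KO replicates 7 and 11 or Vav-Ezh2-KO replicates 1, 9 and 10 (adjusted p 0.0575 to 0.0736). The same happened without a filter, without a trend and after scaling (kept in 13 of 21 alternatives, adjusted p 0.0203 to 0.0922 over all). The difference of both knockout effects was 6.41 for Hba-x (limma adjusted p = 0.0457), lost without any 1 of Tie2-Ezh2-WT replicates 4, 10 and 12 or Vav-Ezh2-WT replicates 4 and 6 or Tie2-Ezh2-KO replicates 9, 11 and 17 or Vav-Ezh2-KO replicates 1, 10 and 28 (adjusted p 0.0515 to 0.390). Nor did Hba-x pass with pseudocount 0.05, without a filter, above 1 RPKM, without a trend, after quantile normalization, after scaling and by voom (kept in 7 of 25 alternatives, adjusted p 0.0146 to 0.730 over all).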

How the data were processed

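Per the submitters' processing notes, reads were aligned to GRCm38/mm10 with TopHat2 2.0.13 and counted with featureCounts, and the RPKM values were used as deposited by the authors, who tested counts with DESeq2. The members and lists were chosen with earlier results of these data known. Of the columns, 0 could not be mapped to a sample. Whole read numbers were recovered from the RPKM steps for 16877 genes, with a tolerance of 1e-04. After genes that never passed 0.2 RPKM in the libraries of a fit had been set aside, the others were tested with limma 3.58.1 in R 4.3.3 on log2(RPKM + 0.2), with a trend in the variance and adjusted p under 0.05 as threshold. Single genes were also tested by a two-sided exact permutation of libraries, for 15 pairs of gene and comparison (Python 3.11.15). Named with the value in every library were members past the threshold in any comparison and members with a group mean of at least 1 RPKM. Named with means and changes were the 3 tested members with the largest rise and fall in each comparison with WT and in the direct one, which took in all tested members, so their value in every library was printed too. The rest stand by class, count and range. From each list, the genes past the threshold are named, with 2 or 3 of those with the highest mean. Other pseudocounts, filters, normalizations, weights, tools, controls and the omission of each library were tried. For the exact test, the alternatives were chosen after seeing the data.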

Additional observations from a re-analysis of the deposited data

Results flagged for a closer look

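In Tie2-Ezh2-KO replicate 13, Col9a3 stood at 0.275 RPKM, while the other 4 libraries of the group had 0 reads of it. The same library had 26825709 reads on genes, the most of its group. In Vav-Ezh2-KO replicate 28, Col4a1 stood at 0.221 RPKM and Col9a3 at 0.159 RPKM, each the highest of its group. Such single libraries were found in 4 of 27 groups. In 2 of these, both of Col9a3, any value beside 4 libraries at 0 is marked, so that the mark was fixed in advance. In the 25 groups besides these, 2 were marked, where chance marks about 1 in 20 groups by the nominal level of the rule. This level need not hold for 1 of the 2, Col4a1, with 3 libraries at 0.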

How the results depend on the processing

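Collagen genes called in Tie2-Ezh2-KO against WT by limma numbered 1, but 0 with a filter of 1 RPKM, which left Col5a1 untested, 0 after quantile normalization, 0 with the corresponding WT libraries only, 2 by voom and 2 with all libraries in one fit. Leaving out 1 library gave 0 to 1: 8 of 10 omissions ended the Col5a1 call, and it was kept without Vav-Ezh2-WT replicate 4 and without Tie2-Ezh2-KO replicate 9. Over 438 alternative values of collagen changes, 416 kept sign and call, 10 lost the call, 2 gained it and 10 changed sign. The sign of Col9a3 in Tie2-Ezh2-KO against WT turned with pseudocount 0.05 (-0.0908), quantile normalization (-0.10), scaling to a common median (-0.0095) and array weights (-0.0197), and in 3 of 9 omissions (-0.0464 to 0.15 over all 9). In the direct comparison it turned with quantile normalization (-0.00036), and for the difference of the knockout effects without Vav-Ezh2-WT replicate 6 (-0.0576 to 0.71 over all omissions). The sign of Col18a1 in Vav-Ezh2-KO against WT turned with the corresponding WT only (-0.0547). Of 15 exact tests, 6 were under 0.05, 5 to 6 with other scales and 4 to 8 in omissions. These tests share genes and libraries and are not independent. Since only collagens were tested this way, no share over all genes stands beside the count. These alternatives of the exact test, and those of the marker sums and partner lists, were chosen after seeing the data.

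Over all genes, calls in Tie2-Ezh2-KO against WT went from 386 to 187 with the corresponding WT only. In Vav-Ezh2-KO against WT they were 1, or 0 to 2. Between the knockouts they went from 495 to 765 with array weights, 969 without Tie2-Ezh2-KO replicate 9 and 320.0 without Vav-Ezh2-KO replicate 28, and the share of higher genes went from 75.2% to 63.6% after quantile normalization. For the difference of the knockout effects, 26 calls became 16 without a filter, 12 above 1 RPKM or with quantile normalization, 10 with scaling, 78 with array weights, 2 by voom and 8 to 32 in omissions, the share of higher genes went from 88.5% to 75.0% (quantile normalization), and scaling moved the median log2 change of all genes from 0.06 to -0.07. The cause was not tested. No paired analysis was made, because the labels do not say which libraries belong together, and replicate numbers do not define pairs. The study reports several independent experiments. These are not given per library, so they could not be modelled.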
